A study of Mus musculus with 19 samples.

Results

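The linker histone genes are the genes for the H1 proteins. They were taken by symbol from the deposited expression table, and 9 of its 25891 genes belonged to them, namely H1foo, H1f0, H1fx, Hist1h1a, Hist1h1b, Hist1h1c, Hist1h1d, Hist1h1e and Hist1h1t. All 9 symbols were found, each in 1 row. The current RefSeq names are H1f8 for H1foo, H1f10 for H1fx, H1f1 for Hist1h1a, H1f5 for Hist1h1b, H1f2, H1f3 and H1f4 for Hist1h1c, Hist1h1d and Hist1h1e, and H1f6 for Hist1h1t.

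The study asked how the loss of CPEB3, an RNA-binding protein that acts on the poly(A) tails of stored mRNAs, alters the RNA of mouse MII oocytes and of the 2cell embryos that they give rise to. RNA was sequenced from 5 CPEB3+/- (labelled Het) and 5 CPEB3-/- (labelled KO) libraries of MII oocytes and from 5 CPEB3+/- and 4 CPEB3-/- libraries of 2cell embryos. Each library was made from 5 pooled cells of BL6 females aged 6 to 10 weeks that had been superovulated with 5 IU of PMSG and of hCG. The 2cell embryos came from zygotes cultured in M16 medium and were taken 37 h after hCG. By the methods, CPEB3-/- stands for CPEB3 LoxP/LoxP; ZP3 Cre+/-, in which the Zp3 promoter limits Cre to growing oocytes, and the controls of the study carry the same Cre with a LoxP/- allele pair or are CPEB3+/+. The labels give only Het and KO, so the control alleles of these libraries are known no further. Genotype therefore refers to the female, and the 2cell embryos also received a paternal allele. The labels do not say that libraries of a group came from separate females, so the p values measure the spread between libraries, which may be technical.

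H1 proteins bind the DNA that enters and leaves the nucleosome and compact the chromatin fibre. H1foo is the oocyte form, stored as mRNA and protein in the egg and replaced by somatic forms after fertilisation. Hist1h1a to Hist1h1e are the replication-dependent forms, whose mRNAs normally end in a stem-loop bound by SLBP in place of a poly(A) tail, H1f0 and H1fx are replacement forms with poly(A) tails that are made outside S phase, and Hist1h1t is the form of the testis.

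The ends of the transcripts are shown first, because the libraries were primed on poly(A) with oligo(dT) while the replication-dependent H1 mRNAs normally carry none. The sequences are those of GENCODE vM21 on GRCm38, written 5′ to 3′ as DNA. Capitals mark the stem-loop, and for H1foo the poly(A) signal.
Hist1h1a: ccaacGGCTCTTTTCAGAGC
Hist1h1c: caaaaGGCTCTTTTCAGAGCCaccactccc
Hist1h1d: caaacGGCTCTTTTCAGAGCCacccacaac
Hist1h1e: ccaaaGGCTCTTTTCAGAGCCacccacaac
Hist1h1t: ccaaaGGCTCTTTTAAGAGCCacttacata
H1foo: tcataatttatcAATAAAgactttgtattc
The sequence of Hist1h1a stops with its annotated transcript, 1 base short of the motif. The 16-letter motif searched for, GGNNCTTTTNAGNGCC on the sense strand, was found in 48 of the 25642 listed genes that have a transcript (0.187%), and 41 of those 48 carry a histone symbol. Hist1h1c, Hist1h1d, Hist1h1e and Hist1h1t held it 25 to 41 bases after the stop codon. In Hist1h1t the loop has another letter than in Hist1h1c, Hist1h1d and Hist1h1e, which share the same 16 letters. The annotated transcript of Hist1h1b ends at its stop codon, so its end could not be read.

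The annotated transcripts go on after the stem-loop by 840 bases in Hist1h1c, 1153 bases in Hist1h1e and 4884 bases in Hist1h1d. The end of Hist1h1c holds AATAAA or ATTAAA, the letters of a poly(A) signal, with 20 bases after the nearest copy. The 1153 bases of Hist1h1e hold neither these letters nor any of the U-rich motifs searched for (TTTTAT and the variants TTTTACT, also TTTTCAT, also TTTTAAAT and also TTTTAAGT). The shorter UUUAU, which the study names as the canonical element for CPEB proteins, was not searched for. The study itself mentions an element for CPEB proteins in the 3′ untranslated region of this gene. The long end of Hist1h1d holds 14 U-rich motifs and 12 poly(A) signals, with 52 and 197 bases after the last of each. H1foo holds 1 U-rich motif, TTTTAT, followed by 57 bases, and H1f0 and Hist1h1c hold 1 each, in Hist1h1c 3 bases from the end. Poly(A) signals were also found in H1foo, H1f0, H1fx and Hist1h1t. The map of the annotated transcripts draws these positions. A match describes the letters only, and no binding was measured.

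**Figure D1:**
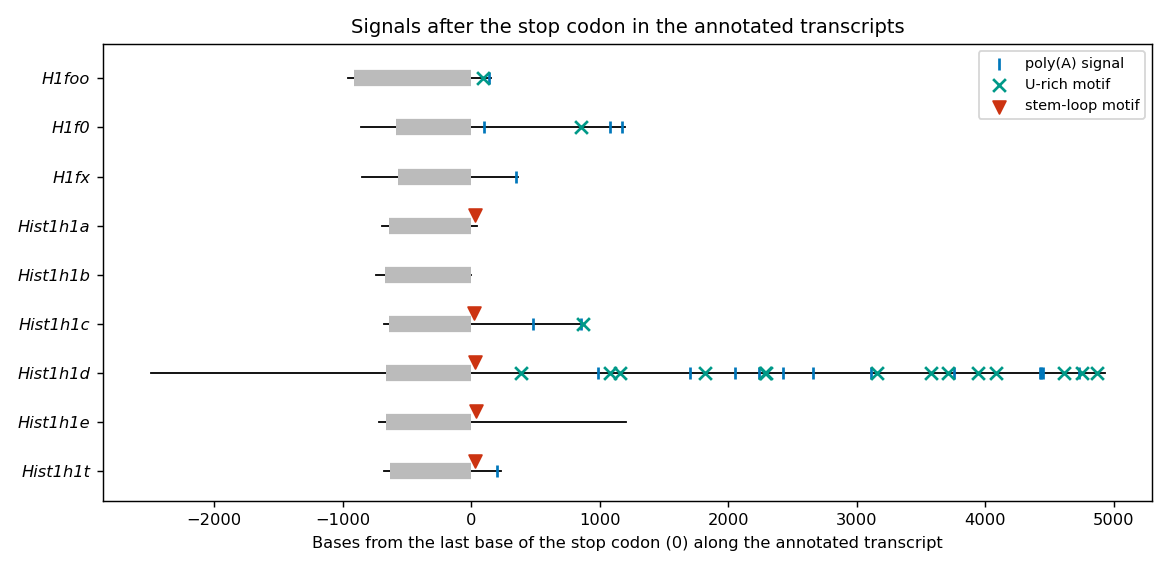
Annotated transcript of each linker histone gene, drawn along bases from the end of its stop codon. Grey bars are the coding regions, black lines the rest of the transcript, and symbols the sequence matches; Hist1h1d is drawn over 7425 bases and is the longest, and in Hist1h1e the stem-loop is the only match.

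H1foo lies on chromosome 6 (chr6:115944938-115950236, + strand) and is the sole member with more than 1 annotated transcript, having 5. H1f0 (chr15:79028450-79030504, +), H1fx (chr6:87980421-87981637, -) and the Hist1h1 genes each have 1 exon. Hist1h1a (chr13:23763666-23764406, +), Hist1h1c (chr13:23738808-23740367, +), Hist1h1d (chr13:23553262-23560686, +), Hist1h1e (chr13:23620629-23622558, -) and Hist1h1t (chr13:23695814-23696725, +) lie in 1 histone cluster on chromosome 13, with Hist1h1b (chr13:21779883-21780625, -) on the same chromosome. Hist1h1e overlaps Hist1h2be over 496 bases on the same strand, but Hist1h2be was listed at 0.0136 FPKM at most in any library. H1f0 and H1fx overlap the antisense genes Gm49544 (163 bases) and Gm5577 (755 bases). No source states that strand was used in counting, so reads in those overlaps cannot be assigned to a strand.

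The promoters of 3 replication-dependent H1 genes that were called between genotypes in MII oocytes are shown beside that of H1foo, whose level lay in the other direction. The stretches run from base -130 to base -11 of the RefSeq start (GRCm38.p6), and capitals mark AAACACA (the H1 box), CCAAT and TATAAA on either strand.
Hist1h1e, chr13:23622569-23622688 (-): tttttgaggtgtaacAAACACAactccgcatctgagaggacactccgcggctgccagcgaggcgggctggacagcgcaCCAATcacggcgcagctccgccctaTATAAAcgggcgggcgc
Hist1h1d, chr13:23554902-23555021 (+): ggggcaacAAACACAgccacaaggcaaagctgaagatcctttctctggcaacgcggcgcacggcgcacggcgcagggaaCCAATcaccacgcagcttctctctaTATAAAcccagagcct
Hist1h1a, chr13:23763538-23763657 (+): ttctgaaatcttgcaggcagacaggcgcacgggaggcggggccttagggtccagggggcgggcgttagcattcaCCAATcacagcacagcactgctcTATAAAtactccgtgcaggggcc
H1foo, chr6:115944801-115944920 (+): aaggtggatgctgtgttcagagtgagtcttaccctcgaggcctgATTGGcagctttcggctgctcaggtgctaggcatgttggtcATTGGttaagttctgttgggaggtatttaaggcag
The H1 box was present in the 300-base promoters of Hist1h1b, Hist1h1c, Hist1h1d, Hist1h1e and Hist1h1t (5 of 9), between bases -122 and -112. Hist1h1a, H1foo, H1f0 and H1fx did not hold these letters. Of 27025 promoters of the same length, 7.14% held AAACACA, 37.9% held CCAAT and 14.2% held TATAAA. The CCAAT motif was found in 7 of the 9 promoters, in H1foo on the opposite strand (printed as ATTGG) at bases -86 and -45, and TATAAA in 4 (Hist1h1a, Hist1h1b, Hist1h1d and Hist1h1e). H1foo thus had CCAAT in common with the Hist1h1 genes, and neither of the other motifs.

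The values of the table are FPKM (fragments per kilobase of exon per M mapped fragments), a level per length. Between genes it depends on the annotated length, and the priming on poly(A) limits how far levels and shares of H1foo and of the replication-dependent genes can be compared. Between genotypes, the amount of an H1 mRNA and the share of it with a poly(A) tail cannot be told apart under this priming. Depth was estimated at 17.2 to 23.6 M fragments a library (M, mega; median 19.7). Cpeb3 itself was not lower in the libraries labelled CPEB3-/-. In MII oocytes it was at 0.215, 0.141, 0.164, 0.131 and 0.157 FPKM in those libraries and at 0.0700, 0.0987, 0.0450, 0.0627 and 0.101 FPKM in the CPEB3+/- libraries, with no overlap (exact two-sided permutation test, p = 0.00794, the smallest that 252 splits allow). In 2cell embryos it was at 0.0599, 0.0362, 0.0633 and 0.0624 FPKM against 0.0204, 0.0236, 0.0265, 0.0566 and 0.0246 FPKM (exact two-sided permutation test, p = 0.0476). These values are low and cover all exons, whether or not Cre deletes them, and their fragments were not estimated. Every direction below is therefore between libraries as labelled. All 8 oocyte markers were present, summing to 556 to 936 FPKM in MII libraries, and all 6 markers of the 2cell embryo summed to 388 to 580 FPKM in 2cell libraries. The 6 of 10 cumulus and granulosa markers in the table summed to 0.612 FPKM at most, with Foxl2 at 0 in all MII libraries. The 2 of 5 blood markers in the table, Hba-a1 and Hba-a2, summed to 0.428 FPKM at most in MII libraries and to 46.2 to 146 FPKM in 2cell libraries.

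H1foo had the highest level of the 9 genes in MII oocytes, and Hist1h1a the next. In CPEB3+/- MII oocytes H1foo was at 641 ± 46.4 FPKM (SD, n = 5), Hist1h1a at 64.7 ± 6.78, H1f0 at 14.8 ± 2.18, Hist1h1e at 1.68 ± 0.341 and H1fx at 1.11 ± 0.521 FPKM. Hist1h1c, at 0.324 ± 0.291, and Hist1h1d, at 0.188 ± 0.0521 FPKM, were lower, while Hist1h1b and Hist1h1t were listed at 0 in all 5 libraries. Hist1h1e and H1fx overlapped in their ranges, as did Hist1h1c and Hist1h1d. At the RefSeq transcript lengths Hist1h1d would be at 1.8 and Hist1h1c at 0.696 FPKM there, so the order of these 2 genes and of Hist1h1d and H1fx depends on the annotation. In CPEB3+/- 2cell embryos Hist1h1a led at 45.2 ± 9.71 FPKM, followed by H1f0 at 26.7 ± 10.4, H1foo at 12.6 ± 1.51 and Hist1h1b at 4.93 ± 1.75 FPKM. The ranges of Hist1h1a and H1f0 overlapped there. FPKM divides by the annotated length, and with the shorter RefSeq transcripts the mean level in CPEB3-/- MII oocytes would be 49.0 in place of 19.8 FPKM for Hist1h1e and 5.96 in place of 0.623 FPKM for Hist1h1d. The ratio of 1 gene's FPKM between libraries does not depend on that length, but for low genes such as Hist1h1d the filter and the differences on the scale of log2(FPKM + 0.1) do.

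**Figure D2:**
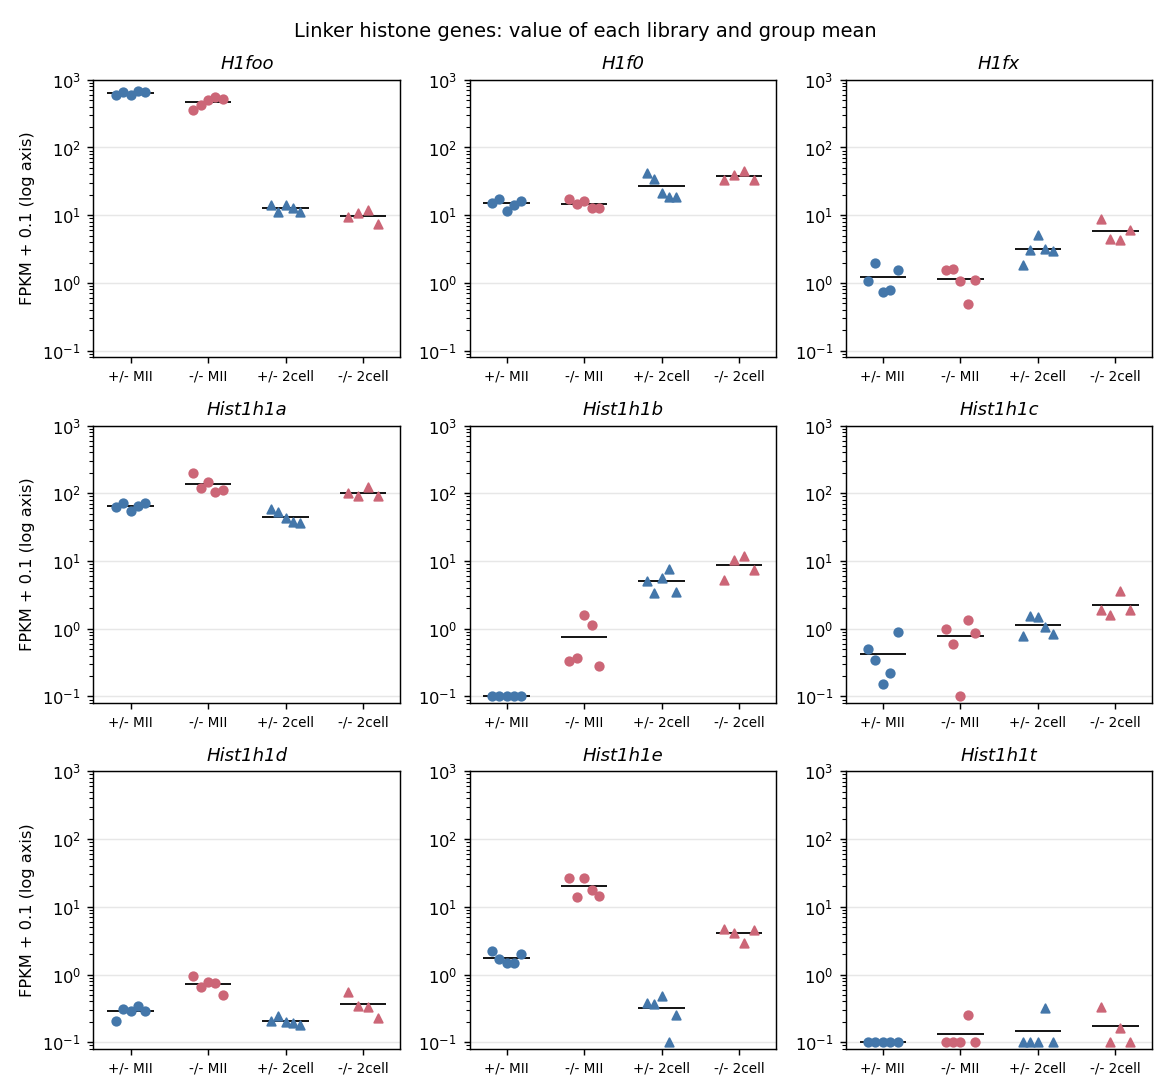
Level of each linker histone gene in each of the 19 libraries, as FPKM + 0.1 on a log axis (1 point a library, black bars the group means, blue CPEB3+/-, red CPEB3-/-, circles MII oocytes, triangles 2cell embryos). The red points of Hist1h1e and Hist1h1a lie above the blue points of the same stage with no overlap, and those of H1foo lie below in MII oocytes.

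Between genotypes, 8 of the 9 genes could be tested at each stage, since Hist1h1t was under the filter of 0.1 FPKM. A gene was called at an adjusted p under 0.05 and a change of more than 1.5-fold, and differences are on the scale of log2(scaled FPKM + 0.1), which understates those of low genes. In MII oocytes 4 of the 8 were called higher in CPEB3-/- libraries (Hist1h1a, Hist1h1b, Hist1h1d and Hist1h1e) and 0 lower, where 12.8% of all 10514 genes tested were called, 5.64% higher and 7.19% lower. At an unadjusted p under 0.05 limma gave 4 of them higher and 1 lower (H1foo). The median log2 difference was 0.82 over the 8 genes and 0.01 over all genes. In 2cell embryos 3 of the 8 were called higher (Hist1h1a, Hist1h1c and Hist1h1e) and 0 lower, where 18.0% of 14050 genes were called, 9.08% higher and 8.95% lower. The medians were 0.83 over the 8 genes and 0.02 over all genes, and at an unadjusted p under 0.05 the counts were 6 higher and 1 lower (H1foo). The groups did not overlap for 5 of the 9 genes in MII oocytes (4 higher, 1 lower), against 16.3% of all genes tested (8.71% higher, 7.57% lower). In 2cell embryos they did not overlap for 3 of the 9 (3 higher), against 20.0% of all genes tested (10.4% higher, 9.56% lower). Hist1h1e was chosen as a candidate by the study, and Hist1h1d stands in a list of changed genes that the study made from these samples, so their direction is not independent evidence. The summed level of the 6 markers of the 2cell embryo was 37.8 to 44.8 FPKM in CPEB3+/- and 45.8 to 61.1 FPKM in CPEB3-/- MII libraries, with 2 of 5 tested called higher (Zscan4c and Zscan4d), and their part in these differences was not tested.

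Hist1h1e, which encodes H1.4, had higher FPKM in CPEB3-/- libraries at both stages. Under the priming on poly(A), more of this mRNA and more of it with a poly(A) tail cannot be told apart. Its levels in CPEB3+/- MII oocytes were 2.13, 1.58, 1.36, 1.39 and 1.93 FPKM, and in CPEB3-/- MII oocytes 26.8, 13.8, 26.3, 17.7 and 14.5 FPKM. The lowest CPEB3-/- library was thus well above the highest CPEB3+/- library. The ratio of the mean levels was 11.8, and the log2 difference was 3.36 (SE 0.20, adjusted p = 1.33e-05). The CPEB3-/- values rest on 526 to 1174 estimated fragments a library and the CPEB3+/- values on 54.8 to 83.5.

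In 2cell embryos Hist1h1e was at 0.280, 0.270, 0.382, 4.1e-22 and 0.154 FPKM in the CPEB3+/- libraries, the fourth of which is less than 1 fragment, and at 4.53, 3.94, 2.85 and 4.51 FPKM in the CPEB3-/- libraries. The groups again lay apart. The ratio of the means was 18.2 and the log2 difference 3.82 (SE 0.42, adjusted p = 0.00113). The CPEB3+/- values rest on 12.7 fragments at most, so that ratio is less precise than the one in MII oocytes. Hist1h1e was called at both stages under each of the 10 other settings and with each library left out. The size of its 2cell log2 difference depended on the setting and ran from 2.01 to 4.06 over these 10. The order of Hist1h1e over the 4 groups was CPEB3-/- MII, CPEB3-/- 2cell, CPEB3+/- MII and CPEB3+/- 2cell, with no overlap between neighbours.

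Hist1h1a, with the highest FPKM of the replication-dependent H1 genes here, was higher in CPEB3-/- libraries at both stages. In MII oocytes its levels were 62.9, 70.6, 54.2, 64.9 and 70.7 FPKM in the CPEB3+/- libraries and 198, 121, 148, 106 and 111 FPKM in the CPEB3-/- libraries. In 2cell embryos they were 58.0, 52.5, 42.8, 37.1 and 35.8 FPKM against 102, 91.9, 123 and 91.7 FPKM. At each stage every CPEB3-/- library was above every CPEB3+/- library. The log2 difference was 0.95 (SE 0.14, adjusted p = 0.00169) in MII oocytes and 1.17 (SE 0.18, adjusted p = 0.00384) in 2cell embryos. With the replicate letter as a block the 2cell difference of Hist1h1a was 1.09 and no longer called (adjusted p = 0.0510). These levels rest on 535 to 3331 estimated fragments, the most of any Hist1h1 gene. In order of level the CPEB3-/- MII and CPEB3-/- 2cell groups overlapped, as did the CPEB3+/- MII and CPEB3+/- 2cell groups, while the genotypes did not.

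Hist1h1d was low in every library. Its levels in MII oocytes were 0.105, 0.206, 0.188, 0.249 and 0.193 FPKM in CPEB3+/- libraries and 0.847, 0.549, 0.677, 0.648 and 0.394 FPKM in CPEB3-/- libraries, with no overlap. Its log2 difference was 1.25 (SE 0.18, adjusted p = 0.00157). In 2cell embryos its levels were 0.109, 0.140, 0.102, 0.0955 and 0.0799 FPKM against 0.448, 0.247, 0.226 and 0.126 FPKM, and the lowest CPEB3-/- library lay within the CPEB3+/- range. That difference of 0.74 (SE 0.25, adjusted p = 0.0622) was not called, but it was without the CPEB3-/- library D (0.94, adjusted p = 0.0307), and for Hist1h1d also with the trend on GC content removed (1.12), library weights (0.83), all 19 libraries in 1 fit (0.74) or equal sums of FPKM (0.93). With a pseudocount of 1 FPKM in place of 0.1 the MII difference of Hist1h1d was 0.42 and no longer over 1.5-fold.

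Hist1h1b was listed at 0 in all 5 CPEB3+/- MII libraries and at 0.236, 0.272, 1.52, 1.03 and 0.185 FPKM in the 5 CPEB3-/- MII libraries. The latter amount to 24.0 estimated fragments at most, and 3 fragments correspond to between 0.171 and 0.207 FPKM in the CPEB3+/- libraries. The call (adjusted p = 0.00511) therefore rests on few fragments, and no fold is given against a group listed at 0. In 2cell embryos its levels were 4.95, 3.30, 5.46, 7.57 and 3.39 FPKM in CPEB3+/- libraries and 5.18, 10.3, 11.8 and 7.25 FPKM in CPEB3-/- libraries. The groups overlapped, and the log2 difference of 0.78 (SE 0.31, adjusted p = 0.105) was not called.

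Hist1h1c was at 0.408, 0.245, 0.0542, 0.125 and 0.786 FPKM in CPEB3+/- MII oocytes and at 0.887, 0.502, 0, 1.25 and 0.763 FPKM in CPEB3-/- MII oocytes. The groups overlapped widely, and the log2 difference of 0.69 (95% interval -0.84 to 2.21, adjusted p = 0.495) was not called. This MII value of Hist1h1c was 1.31 (adjusted p = 0.0886) without the CPEB3-/- library C, 0.38 without CPEB3-/- D, 0.397 without CPEB3+/- C and 0.30 with a pseudocount of 1 FPKM, and was called in none of these. In 2cell embryos its levels were 0.694, 1.44, 1.38, 0.974 and 0.729 FPKM against 1.77, 1.52, 3.53 and 1.76 FPKM. The groups did not overlap and the difference of 0.93 (SE 0.29, adjusted p = 0.0491) passed narrowly. The call was lost when any 1 of 7 of the 9 libraries was left out (CPEB3+/- A, D or E, or CPEB3-/- A, B, C or D, adjusted p 0.0599 to 0.109). It was also lost for Hist1h1c with no filter on low values (adjusted p = 0.0861), a pseudocount of 1 FPKM (0.0547), the trend on GC content removed (0.141), the replicate letter as a block (0.112), no trend of the variance (0.0529) and all 19 libraries in 1 fit (0.262). Coding parts of Hist1h1c, Hist1h1d and Hist1h1e are alike, and the treatment of reads that map to several genes is not given in the sources used here, so their split among these 3 genes is uncertain.

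H1foo, the oocyte form, had lower levels in CPEB3-/- MII oocytes. Its levels were 589, 668, 594, 690 and 663 FPKM in CPEB3+/- libraries and 355, 424, 505, 560 and 517 FPKM in CPEB3-/- libraries, so that all 5 of the latter lay below all 5 of the former. The log2 difference of -0.55 (SE 0.14, adjusted p = 0.0203) passed the adjusted p but not the 1.5-fold limit, and H1foo was not called. It passed that limit without the CPEB3-/- library D (-0.63) or E (-0.60) and when the trend on GC content was removed (-0.72, adjusted p = 0.0188). The adjusted p of H1foo missed 0.05 with libraries scaled to the same sum of FPKM (-0.38, adjusted p = 0.0637), with no filter on low values (0.0542) and without the CPEB3-/- library B (0.0508). The summed level of the 8 oocyte markers was likewise 731 to 936 FPKM in CPEB3+/- and 556 to 668 FPKM in CPEB3-/- MII libraries. Of these markers 1 was called, Mos, which was lower, and their median log2 difference was -0.30. The markers did not all go the same way. Zp1 (0.317) and Zp3 (0.257) had positive differences, while Bmp15, Figla, Gdf9, Oosp1 and Zp2 had negative ones, none of them called. The part of these markers in the difference of H1foo was not tested. FPKM is relative to the fragments of each library and measures neither the RNA per cell nor the number of intact cells. In 2cell embryos H1foo was at 14.1, 11.0, 14.1, 12.6 and 11.2 FPKM against 9.46, 10.7, 11.7 and 7.19 FPKM, with overlapping groups and a difference of -0.40 (SE 0.17, adjusted p = 0.119). This difference was called with the trend on GC content removed (-0.63, adjusted p = 0.0438) and was -0.09 with libraries scaled to the same sum. With 1 library left out it ran from -0.50 to -0.26 and was never called.

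The replacement forms were not called between genotypes at either stage, although some other settings called them in 2cell embryos. H1f0 had a log2 difference of -0.12 (95% interval -0.34 to 0.10) in MII oocytes, where its levels ran from 11.5 to 17.4 FPKM over the 10 libraries. In 2cell embryos its difference was 0.54 (95% interval -0.07 to 1.15), with CPEB3+/- levels of 41.2, 34.1, 21.1, 18.2 and 18.7 FPKM and CPEB3-/- levels of 33.5, 39.6, 44.3 and 32.7 FPKM. CPEB3+/- libraries A and B thus lay within the CPEB3-/- range, and without library A the difference was 0.73 (adjusted p = 0.0484). With equal sums of FPKM the 2cell difference of H1f0 was 0.86 (adjusted p = 0.0423). H1fx had a difference of -0.15 (95% interval -0.90 to 0.61) in MII oocytes and of 0.87 (95% interval 0.24 to 1.51, adjusted p = 0.0554) in 2cell embryos. Its levels in 2cell embryos were 1.71, 3.01, 4.95, 3.02 and 2.90 FPKM against 8.64, 4.33, 4.27 and 6.02 FPKM, and without the CPEB3+/- library C, the highest of its group, the difference was 1.04 (adjusted p = 0.0235). The 2cell difference of H1fx was called with a filter of 1 FPKM (0.87, adjusted p = 0.0338), with library weights (0.84, adjusted p = 0.0476) and with equal sums of FPKM (1.18, adjusted p = 0.0221). With the trend on GC content removed it was 0.0698 (adjusted p = 0.880). The negative differences of H1f0 and H1fx in MII oocytes turned positive when libraries were scaled to the same sum of FPKM, and were -0.24 (adjusted p = 0.0535) and -0.44 (adjusted p = 0.234) with the trend on GC content removed.

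**Figure D3:**
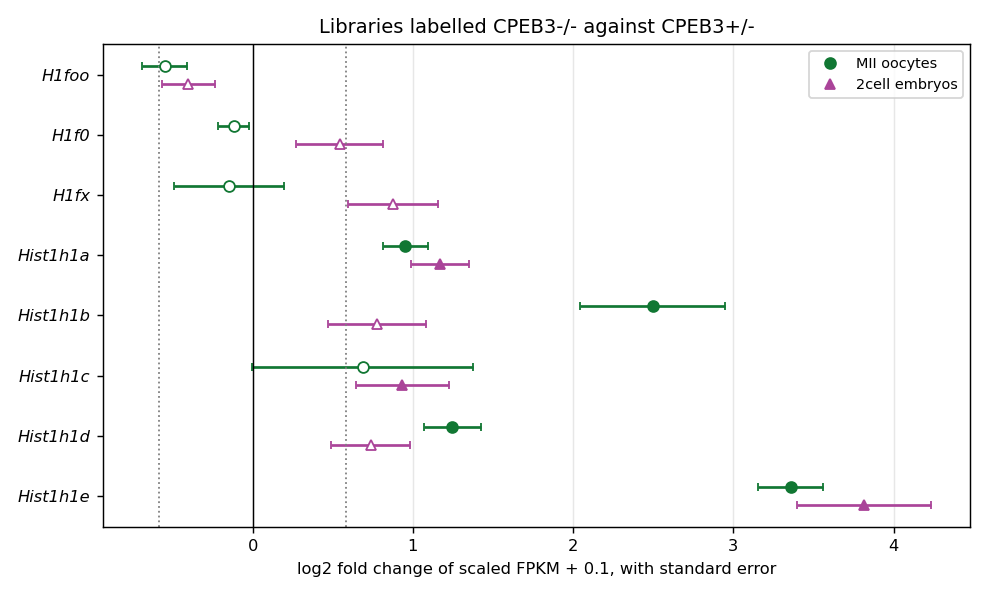
Log2 difference of each tested linker histone gene between CPEB3-/- and CPEB3+/- libraries, with its standard error, in MII oocytes (green circles) and 2cell embryos (purple triangles). Filled symbols are called, dotted lines mark 1.5-fold, and Hist1h1e lies at 3.36 and 3.82; the value of Hist1h1b in MII oocytes, against a group listed at 0, depends on the pseudocount.

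Hist1h1t was above 0 in 4 of the 19 libraries. It was listed at 0.157 FPKM in the CPEB3-/- MII library D, at 0.222 FPKM in the CPEB3+/- 2cell library D and at 0.231 and 0.0635 FPKM in the CPEB3-/- 2cell libraries A and C. Each of these values amounts to 5 fragments or fewer, and no genotype could be distinguished at this depth. Hils1, another H1 gene of the testis, was under the filter as well.

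The make-up of the linker histone RNA was described without a test, because the genes are not replicates of each other. H1foo made up 87.8, 87.9, 89.7, 89.4 and 87.9% of the summed FPKM of the 9 genes in CPEB3+/- MII libraries and 59.2, 73.6, 72.3, 80.0 and 78.6% in CPEB3-/- MII libraries. The share of H1foo was thus lower in each CPEB3-/- library, with A the lowest. In 2cell embryos its share was 11.7, 10.4, 15.7, 15.8 and 15.4% in CPEB3+/- libraries and 5.71, 6.56, 5.82 and 4.75% in CPEB3-/- libraries, again with no overlap. Hist1h1a made up 8.93 ± 0.578% of the sum in CPEB3+/- and 21.4 ± 6.96% in CPEB3-/- MII oocytes (SD, n = 5 each). The summed level of Hist1h1a to Hist1h1e was 66.8 ± 7.11 (CPEB3+/-) against 159 ± 43.3 FPKM (CPEB3-/-) in MII oocytes, and 51.5 ± 9.47 against 117 ± 16.5 FPKM in 2cell embryos. The sum over all 9 genes was 724 ± 53.0 against 647 ± 56.1 FPKM in MII oocytes and 94.0 ± 19.5 against 170 ± 21.8 FPKM in 2cell embryos. The level of H1foo per level of Hist1h1a to Hist1h1e was 9.64 in CPEB3+/- and 3.21 in CPEB3-/- MII oocytes, and 0.250 and 0.0833 in 2cell embryos.

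**Figure D4:**
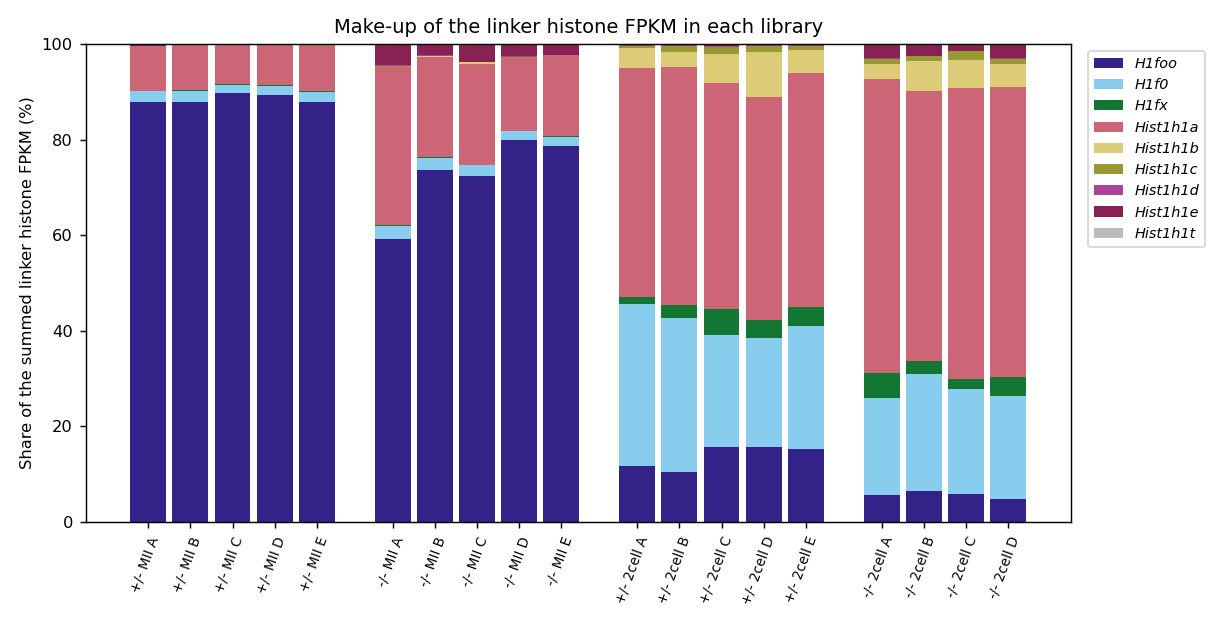
Share of each linker histone gene in the summed FPKM of the 9 genes, 1 stacked bar a library. H1foo (dark blue) takes 59.2 to 89.7% of MII bars and 4.75 to 15.8% of 2cell bars, and Hist1h1a (rose) is the widest band in every 2cell bar.

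Between stages most of the transcriptome changed. In CPEB3+/- libraries 65.5% of the 15785 genes tested were called between 2cell embryos and MII oocytes (41.7% higher, 23.8% lower in 2cell embryos), and in CPEB3-/- libraries 64.7% (40.9% higher, 23.8% lower). Of the 8 linker histone genes tested, 6 were called in CPEB3+/- (4 higher, 2 lower in 2cell embryos) and 7 in CPEB3-/- (4 higher, 3 lower). The stages did not overlap for 4 of the 9 genes in CPEB3+/- (2 higher, 2 lower), against 58.9% of all genes tested (36.0% higher, 22.9% lower), and for 6 of the 9 in CPEB3-/- (4 higher, 2 lower), against 59.3% (36.1% higher, 23.2% lower). The median log2 change of all genes was 0.37 in CPEB3+/- and 0.35 in CPEB3-/-. With libraries scaled to the same sum it was -0.17 and -0.07, so changes near these sizes depend on the scaling.

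H1foo fell by far more than this shift. Its mean level went from 641 to 12.6 FPKM in CPEB3+/- and from 472 to 9.76 FPKM in CPEB3-/-, log2 changes of -5.63 (SE 0.14, adjusted p = 2.22e-16) and -5.54 (SE 0.15, adjusted p = 8.62e-16). Hist1h1e fell too, with log2 changes of -2.63 in CPEB3+/- (SE 0.33, adjusted p = 8.59e-07) and -2.22 in CPEB3-/- (SE 0.35, adjusted p = 1.49e-05). For both genes every 2cell library lay below every MII library of its genotype. Hist1h1d fell in CPEB3-/- libraries (-1.003, SE 0.22, adjusted p = 0.000458) and had a value of -0.46 in CPEB3+/- libraries that was not called (adjusted p = 0.0527). Hist1h1a had values of -0.51 and -0.35 and was called in neither genotype. Scaled to the same sum of FPKM, Hist1h1a was called lower in 2cell embryos in both genotypes (-1.32 in CPEB3+/- and -0.96 in CPEB3-/-) and Hist1h1d in CPEB3+/- libraries as well (-0.90). In CPEB3+/- libraries Hist1h1a was also called with the trend on GC content removed (-0.62) and without the 2cell library A (-0.63) or B (-0.598), and Hist1h1d without the MII library A (-0.59). With a pseudocount of 1 FPKM the change of Hist1h1d in CPEB3-/- libraries was -0.35 and not called.

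Hist1h1b, H1fx, H1f0 and Hist1h1c rose between the stages in both genotypes. The level of Hist1h1b went from 0 to 4.93 FPKM in CPEB3+/- and from 0.647 to 8.64 FPKM in CPEB3-/- (log2 change 3.89, SE 0.43, adjusted p = 1.92e-07). H1fx rose by 1.47 (SE 0.33, adjusted p = 0.000561) in CPEB3+/- and 2.44 (SE 0.35, adjusted p = 4.74e-06) in CPEB3-/- on the log2 scale. Hist1h1c rose by 1.67 (SE 0.57, adjusted p = 0.0131) and 1.89 (SE 0.60, adjusted p = 0.00916). H1f0 rose by 0.80 (SE 0.21, adjusted p = 0.00194) and 1.403 (SE 0.22, adjusted p = 1.35e-05), but scaled to the same sum of FPKM its change in CPEB3+/- was -0.01. Under that scaling H1fx in CPEB3+/- (0.70) and Hist1h1c in both genotypes (1.005 and 1.396) were no longer called. Gm5577, antisense to H1fx, was at 0.0225 FPKM in CPEB3+/- MII oocytes and at 0.378 FPKM in CPEB3+/- 2cell embryos, and its part in the rise of H1fx was not tested.

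**Figure D5:**
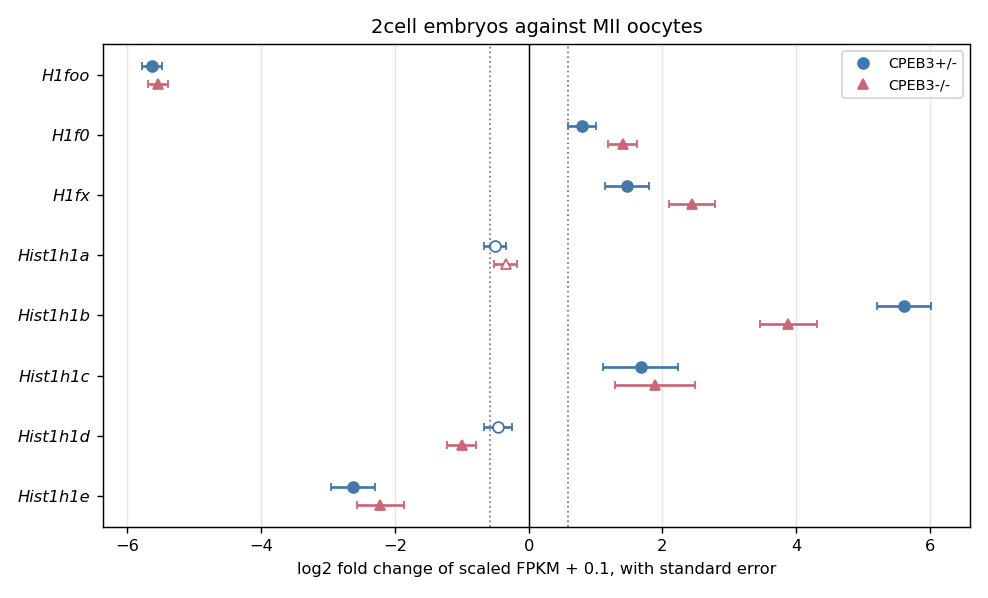
Log2 change of each tested linker histone gene from MII oocytes to 2cell embryos, with its standard error, in CPEB3+/- (blue circles) and CPEB3-/- (red triangles). Filled symbols are called and dotted lines mark 1.5-fold; H1foo lies at -5.63 and -5.54, and Hist1h1b at 5.61 (against a group listed at 0, so dependent on the pseudocount) and 3.89.

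Whether the genotype difference itself changed from MII oocytes to 2cell embryos was tested as an interaction of stage and genotype. Of the 8 linker histone genes 0 were called in limma, where 8.38% of all genes were (3.40% higher, 4.97% lower). Of the 8, 1 had an unadjusted p under 0.05, Hist1h1b (interaction of -1.73, SE 0.59, adjusted p = 0.0776), and with a pseudocount of 1 FPKM its value was 0.04. Hist1h1e had an interaction of 0.41 (95% interval -0.59 to 1.41), which with a pseudocount of 1 FPKM turned to -0.86 and was called (adjusted p = 0.0256). The interaction was 0.16 (-0.35 to 0.67) for Hist1h1a and 0.09 (-0.35 to 0.53) for H1foo. These intervals leave room for a difference between stages in either direction.

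Genes that make or use linker histones were counted from lists, beside the shares called among all genes tested. Of 13 genes of histone mRNA 3′ end formation and decay tested in MII oocytes, 2 were called higher (Coil, for the coilin of Cajal bodies, 0.80, and Upf1, a helicase of mRNA decay, 0.73) and 2 lower (Slbp, and Casp8ap2, for a histone mRNA processing factor, -0.62), against 5.64% higher and 7.19% lower of all genes tested. Of 12 tested in 2cell embryos, 0 were higher (0 at an unadjusted p under 0.05 in limma) and 4 lower (Slbp, Npat, Casp8ap2 and Eri1), against 9.08% higher and 8.95% lower of all genes. The list had a median log2 difference of -0.12 in MII oocytes and -0.33 in 2cell embryos. Slbp, which encodes the protein that binds the stem-loop printed above, was at 230, 145, 226, 190 and 131 FPKM in CPEB3+/- MII oocytes and at 37.4, 61.3, 87.0, 122 and 118 FPKM in CPEB3-/- MII oocytes. In 2cell embryos it was at 30.8, 27.5, 25.7, 29.6 and 28.7 FPKM against 14.9, 15.3, 12.1 and 9.85 FPKM. The genotypes did not overlap at either stage, and Slbp fell by 1.30 (SE 0.35, adjusted p = 0.0261) and by 1.16 (SE 0.15, adjusted p = 0.00185) on the log2 scale. Slbp stands in the same list of changed genes of the study as Hist1h1d. Npat, the activator of histone gene transcription in S phase, fell in 2cell embryos (-1.06, SE 0.13, adjusted p = 0.00171), from a mean level of 4.02 to 1.89 FPKM. Eri1, an exonuclease that trims histone mRNA ends, had a 2cell difference of -0.65 (adjusted p = 0.0334).

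Of the 9 histone chaperones, 1 was called higher in MII oocytes (Npm3, 0.84, adjusted p = 0.00912) and 0 were called in 2cell embryos in limma, where at an unadjusted p under 0.05 3 of the 9 were higher and 3 lower. Of all genes tested 12.8% were called in MII oocytes and 18.0% in 2cell embryos. Of 9 HMG genes, whose proteins share or contest nucleosome sites with H1, 2 were higher in MII oocytes (Hmgn3, 2.00, adjusted p = 0.000198, and Hmgn5, 0.72, adjusted p = 0.00157). In 2cell embryos Hmgn3 was higher (0.90, adjusted p = 0.0116) and Hmgn2 lower (-0.69, adjusted p = 0.0420). Hmgn3 stands in that list of changed genes as well. Of the 59 core histone genes of the Hist1 to Hist4 clusters, 33 were tested in MII oocytes and 52 in 2cell embryos, and 8 and 5 were called higher and 0 lower in either, against 5.64 and 9.08% higher and 7.19 and 8.95% lower of all genes tested (at an unadjusted p under 0.05 in limma, 10 and 7 higher, 1 and 0 lower). Their median log2 differences were 0.49 and 0.25. Many core histone genes are near-identical copies, so their single values are uncertain.

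Over the 19 libraries, the genes whose log2 level followed a linker histone most closely were found among the 7058 genes with a mean of at least 1 FPKM in any group by Pearson's r, as a description, since the libraries share their groups. For H1foo they were Ktn1, Bbs4, Bub1b, Slc35a1 and Ccdc14 (r 0.994 to 0.996), and 648 genes had an r over 0.95. For Hist1h1e they were Cmas (0.952), Gstp1 (0.945), Emx2 (0.944), Tmem63b (0.933) and Hist1h1a (0.926), and 1 gene was over 0.95. The pattern of H1foo over the groups was thus shared by many genes and that of Hist1h1e by few, with Hist1h1a among the 5 nearest.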

How the data were processed

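The authors trimmed reads with Trim Galore 0.4.1, mapped them to GRCm38 with HISAT2 2.0.5 (versions from the submitters' processing notes) and computed FPKM in SeqMonk; the deposited table is named for counts but holds FPKM. Libraries were made with a Smart-seq v4 kit primed on poly(A) and Nextera XT, from 5 cells each. The methods give 4 replicates, and the labels 4 or 5 libraries a group, all used here. There were 0 columns of values not used. Depth (17.2 to 23.6 M fragments) was estimated from the steps of low FPKM in 9238 genes with 1 transcript. Of the low values above 0, 39.4% lay within 0.05 of a whole fragment, where 10% would by chance. Fragment estimates cover counting error only.

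Genes with at least 0.1 FPKM in 5 MII, 4 2cell or, for all 19 libraries, 4 libraries were tested. Scaling factors came from trimmed log ratios (30% of ratios and 5% of levels cut off on each side), and limma 3.58.1 (R 4.3.3, eBayes with trend) was fitted to log2(FPKM + 0.1), within each stage for genotype and over all 19 libraries for stage and interaction. Adjusted p is Benjamini-Hochberg over all genes tested, and tests are two-sided. Single values had exact permutation tests. On simulated data limma recovered 81.5% of 200 changed genes in MII oocytes (10216 genes) and 78.5% in 2cell embryos. False calls numbered 3 among 10037 unchanged genes (MII) and 17 among 13332 (2cell). These rates apply only to the size of change that was simulated. All 9 members are named, and of each list those called. Members and lists were chosen with earlier results of these data known. Genotype groups come from the labels. Replicates of a group correlated at r 0.931 to 0.979, and same letters did not pair libraries (r of deviations -0.147 to 0.0964 over 18 pairs). Alternatives were scaling, filter, pseudocount, GC trend, replicate block, variance trend, library weights, a joint fit, RefSeq lengths (added after seeing the data) and leaving out each library. Transcripts are from GENCODE vM21 and promoters from RefSeq, which matched 9 of 9 genes.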

Additional observations from a re-analysis of the deposited data

Results flagged for a closer look

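In 36 groups of 4 or 5 libraries (9 genes by 4 groups), 3 values stood apart from the others of their group by Dixon's 95% criterion, which chance meets in about 1 of 20 groups. Hist1h1c was at 3.53 FPKM in the CPEB3-/- 2cell library C, with 1.77 FPKM as the next highest of the group. Without that library the 2cell genotype difference of Hist1h1c was 0.67 and not called (adjusted p = 0.109). Hist1h1t was at 0.157 FPKM in the CPEB3-/- MII library D and at 0.222 FPKM in the CPEB3+/- 2cell library D, each the sole value above 0 in its group. These 2 values amount to 2.99 and 3.98 estimated fragments.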

How the results depend on the processing

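Hist1h1e kept its calls under each alternative for genotype and stage, and Hist1h1a, Hist1h1b and Hist1h1e kept their MII genotype calls wherever they were tested (a filter of 1 FPKM left out Hist1h1b and Hist1h1c in MII oocytes and Hist1h1d throughout). The number of genes called was 1349 between genotypes in MII oocytes (772 with a filter of 1 FPKM, 482 with a pseudocount of 1, 957 to 1546 with 1 library left out), 2534 in 2cell embryos (1541, 1161, 1804 to 2548), 10339 between stages in CPEB3+/- (5211, 5175, 10053 to 10324), 10220 in CPEB3-/- (5120, 5297, 10015 to 10372) and 1322 for the interaction (840, 872, 945 to 1530). With the replicate letter as a block, although the letters did not pair libraries, 832 and 365 genes were called between genotypes and 943 for the interaction, Hist1h1a (adjusted p = 0.0510) and Hist1h1c (0.112) lost their 2cell calls and the interaction of Hist1h1b was called (0.0490). Genes called higher and lower numbered 593 and 756 in MII oocytes, against 786 and 591 as deposited and 1111 and 478 scaled to equal sums, which moved the median of all genes to 0.15. Under the latter scaling they were 2422 and 573 in place of 1276 and 1258 in 2cell embryos (median 0.26), 4976 and 5931 in place of 6590 and 3749 between stages in CPEB3+/-, 5315 and 5572 in place of 6457 and 3763 in CPEB3-/-, and 802 and 416 in place of 537 and 785 for the interaction. It turned H1f0 (0.0531) and H1fx (0.00564) in MII oocytes and H1f0 between stages in CPEB3+/- (-0.0130), and called H1f0, H1fx, Hist1h1b and Hist1h1d higher in 2cell embryos. H1fx in MII oocytes ran over -0.291 to 0.123 with 1 library left out and turned without CPEB3+/- B (0.0295) or CPEB3-/- D (0.123). Interactions turned for H1foo without the GC trend (-0.0211) or without CPEB3-/- 2cell C (-0.00565, range to 0.276), for Hist1h1c without CPEB3+/- MII E, CPEB3-/- MII C or CPEB3-/- 2cell C (range -0.416 to 0.566), and with a pseudocount of 1 for Hist1h1b (0.0416) and Hist1h1e (-0.86, adjusted p = 0.0256, called). The interaction of H1f0 was called without CPEB3+/- 2cell A (0.85, adjusted p = 0.0218) and that of Hist1h1b without CPEB3-/- MII E (-1.94, adjusted p = 0.0490). The cause of these changes was not tested. The share of H1foo ran over 88.3 to 88.8% and 70.9 to 76.1% in MII oocytes, and 13.3 to 14.6% and 5.43 to 6.03% in 2cell embryos, with 1 library left out. Depth limits Hist1h1b in MII oocytes, Hist1h1e in CPEB3+/- 2cell embryos and Hist1h1t, each at few fragments.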
